A study of Oryza sativa Indica Group with 8 samples.

Results

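Phosphate transport and sensing genes were examined in rice leaves that overexpress OsPRR37, a pseudo-response regulator of the circadian clock. The set held 10 of the 35961 listed loci. It comprised 5 phosphate transporters of the PHT1 family, namely OsPT11 (LOC_Os01g46860), OsPT1 (LOC_Os03g05620), OsPT2 (LOC_Os03g05640), OsPT4 (LOC_Os04g10750) and OsPT8 (LOC_Os10g30790). It also comprised 4 SPX proteins, namely SPX1 (LOC_Os06g40120), SPX2 (LOC_Os02g10780), SPX3 (LOC_Os10g25310) and SPX4 (LOC_Os03g61200), and the transcription factor PHR2 (LOC_Os07g25710). The members were picked by MSU locus identifier for their roles, and all 10 had values in the 4 libraries. OsPT11 entered because the study had singled it out in these same libraries as a gene with altered expression, so its own rise is described here and lends no independent support to anything. The question was whether that rise comes with changes in the other phosphate genes.

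The plants of interest were OE5, a transgenic line that overexpresses OsPRR37, and the comparison was with GL, the elite variety Guangluai 4 in which the line was made. Both groups thus share the GL background. The study states that GL carries a loss-of-function allele of OsPRR37, so the transgene was compared with that allele and not with a functional one. OE5 is 1 transgenic line, so an effect of OsPRR37 and a trait of that line cannot be told apart. Seedlings of 15 days were raised in a growth chamber held at 28°C, with days of 14 h and nights of 10 h. The uppermost fully opened leaves were taken in the morning, at 1 time of day. The study reports a daily rhythm of OsPT11 and an altered rhythm of OsPRR37 in OE5. The rhythm of OsPT11 came from a published time course of GL and OE5 leaves, from older plants under natural long days. That time course was not used here. From 1 time of day, a change in level and a shift in daily rhythm cannot be told apart. Each genotype had 2 RNA-seq libraries, called OE5-1, OE5-2, GL-1 and GL-2, which the study treats as biological replicates. The labels do not say that they came from separate plants, so p-values measure the spread between these libraries, which may be technical. The promoter that drives the transgene, the number of plants per library and the phosphate supply were not given in the sources used here.

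Plants take up inorganic phosphate with proton-coupled transporters of the PHT1 family and move it between organs with the same family and with PHO1 exporters. In rice, PHR2 is the central transcription factor of phosphate starvation, and it activates transporter genes, genes that replace phospholipids with other lipids, and SPX genes. SPX proteins bind inositol pyrophosphates, which report a sufficient phosphate supply, and then hold PHR2 in check. SPX1, SPX2 and SPX3 transcripts are themselves known to rise under phosphate starvation in rice, whereas SPX4 is known to be controlled mainly through protein turnover. OsPT11 is best known as the transporter that takes up phosphate from mycorrhizal fungi in root cells.

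The libraries held between 43423801 and 48284992 counts on genes, of which the 10 members took 15232 and 15561 in OE5 and 11046 and 11981 in GL. Replicates differed by more than sampling noise, since chi-square over its degrees of freedom, across all genes with counts, reached 38.2 in OE5 and 128 in GL. Where nothing further is said, values are normalized counts, that is, counts after TMM scaling of the libraries. TPM, which also divides by gene length, is used to compare levels between genes, for sums over genes and wherever TPM is named. The scale matters for small differences. Over all 19280 tested genes, the median log2 fold change was -0.01 with TMM and 0.14 on the log2(TPM + 1) scale. Genotypes compared in TPM therefore carry a shift toward OE5. The leaf label was checked with 5 leaf markers (Rubisco small subunits and chlorophyll-binding proteins), which summed to 96813 and 88314 TPM in OE5 and to 95412 and 80298 TPM in GL, with none called.

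On the TPM scale, the members spanned a wide range in both genotypes. In OE5, SPX1 was the highest with 66.4 ± 2.51 TPM (SD, n = 2). It was followed by SPX2 with 43.9 ± 3.15, OsPT4 with 35.8 ± 2.96, PHR2 with 31.2 ± 0.86 and OsPT1 with 23.3 ± 2.34 TPM. SPX4 with 17.5 ± 0.30 and OsPT8 with 17.1 ± 4.27 TPM came next, then SPX3 with 6.24 ± 0.041, OsPT11 with 5.76 ± 0.24 and OsPT2 with 0.62 ± 0.13 TPM. Only SPX4 and OsPT8 had overlapping library values with their neighbour in this order. In GL, the top of the order was not resolved, since each of the first 5 genes overlapped its neighbour among them. These were SPX1 with 37.4 ± 0.98, OsPT4 with 36.7 ± 3.19, OsPT1 with 36.1 ± 4.15, SPX2 with 31.2 ± 4.32 and PHR2 with 29.3 ± 0.062 TPM (SD, n = 2). Below them SPX4 had 16.3 ± 1.19, OsPT8 9.26 ± 0.16, SPX3 5.36 ± 1.11, OsPT11 2.30 ± 0.65 and OsPT2 0.31 ± 0.17 TPM, without overlap between neighbours. OsPT11, the gene that drew attention to the pathway, thus stayed the next-to-lowest member in either genotype. Against all tested genes, its mean level lay at the 28.9 percentile and that of SPX1 at the 89.1 percentile.

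**Figure D1:**
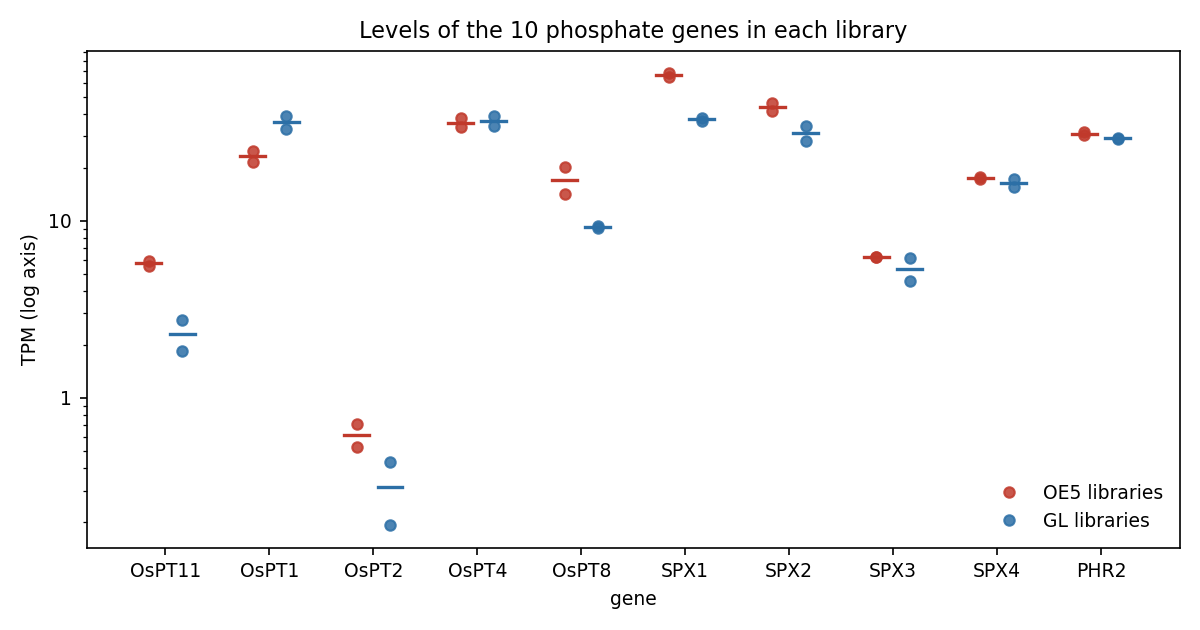
TPM of the 10 genes in each library on a log axis, with OE5 in red and GL in blue; points are libraries and short lines are genotype means (n = 2). OsPT11 and SPX1 are higher and OsPT1 is lower in both OE5 libraries than in both GL libraries, while OsPT2 stays below 1 TPM throughout.

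With edgeR's quasi-likelihood test, a gene was called when its Benjamini-Hochberg adjusted p over all tested genes was under 0.05 and its fold change was over 1.5. Of the 10 members, 9 passed the filter on low expression and 3 were called. OsPT11 and SPX1 rose and OsPT1 fell. For comparison, 3.39% of all 19280 tested genes were called, 2.11% higher and 1.28% lower in OE5. The members were not a random draw, since OsPT11 was known to change in these libraries. The median log2 fold change of the 9 tested members was 0.06, and that of all tested genes was -0.01. DESeq2, which the study used, called 4 members, 3 higher and 1 lower, with OsPT8 added, against 4% of all tested genes, 2.5% higher and 1.5% lower. With the replicate number as a block in edgeR, the same 4 members were called, against 3.67% of all tested genes, 2.28% higher and 1.4% lower. The libraries of the genotypes did not overlap for 6 of the 9 tested members, 4 above and 2 below GL, and for 44.6% of all tested genes.

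OsPT11 had 159 and 167 normalized counts in OE5-1 and OE5-2, against 85 and 59.8 in GL-1 and GL-2. Both OE5 libraries lay above both GL libraries, and the OE5 libraries lay closer together than the GL libraries. OsPT11 rose 2.22-fold, or by 1.15 on the log2 scale (SE, the standard error, 0.25, 95% interval 0.59 to 1.70, edgeR adjusted p = 0.0348). With 1 OE5 library left out, the fold change stayed at 1.18 without OE5-1 and 1.11 without OE5-2 on the log2 scale, but the call was lost. In such a fit the spread rests on the GL pair alone, for every gene. The raw counts were 171 and 185 in OE5 and 79 and 54 in GL, so OsPT11 was measured on few reads. In a bulk leaf sample, a change in the share of cells that express a gene and a change in RNA per cell cannot be told apart. This holds for each result below.

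OsPT1, a transporter known from rice for high expression in roots and shoots when phosphate is ample, went the other way. It had 744 and 848 normalized counts in OE5-1 and OE5-2, against 1234 and 1533 in GL-1 and GL-2, with no overlap. OsPT1 fell to 0.576 of its GL level, with a log2 fold change of -0.80 (SE 0.14, 95% interval -1.10 to -0.49, edgeR adjusted p = 0.0141). The call was lost without OE5-1 (log2 fold change -0.70, edgeR adjusted p = 0.168) and without OE5-2 (-0.89, edgeR adjusted p = 0.0716). It was also lost with limma on log2(TPM + 1), where the value was -0.61 with an adjusted p of 0.0683, and on log2(TPM + 0.1), where it was -0.63 with an adjusted p of 0.0719. Of 6 root markers, 4 had values, and their summed level was also lower in OE5, with 12.2 and 11.2 TPM in OE5 and 18.0 and 16.4 TPM in GL. Lsi1, the silicon influx transporter of roots, made up most of this sum and was called lower, with a log2 fold change of -0.75 (SE 0.14, edgeR adjusted p = 0.0208). Lsi2, its efflux partner, had 1 count in GL-1 and 0 in the other libraries. The sodium transporter OsHKT2;1 had 108 and 128 normalized counts in OE5, against 213 and 192 in GL, without overlap, and its log2 fold change of -0.77 (SE 0.20, edgeR adjusted p = 0.0848) was not called. The iron transporter OsIRT1 did not pass the filter, and its normalized counts of 81.0 and 68.6 in OE5 overlapped the 72.1 and 55.3 in GL. The part of root-type transcripts in the fall of OsPT1 was not tested.

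OsPT8, a high-affinity transporter of rice that is expressed in roots and shoots, had 645 and 911 normalized counts in OE5-1 and OE5-2, against 453 and 490 in GL-1 and GL-2. The OE5 libraries lay above the GL libraries but far apart from each other. The log2 fold change was 0.72 (SE 0.17, 95% interval 0.33 to 1.11), and the adjusted p of 0.0579 from edgeR missed the limit. It passed with DESeq2 (adjusted p = 0.0132) and with the replicate block (log2 fold change 0.70, edgeR adjusted p = 0.0396), and it passed without GL-2 (log2 fold change 0.79, edgeR adjusted p = 0.0269). Over the alternatives the adjusted p ranged from 8.09e-05, without a filter on low expression, to 0.552, without OE5-2, where the log2 fold change was 0.45. The size of the OsPT8 difference therefore rested in part on OE5-2.

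OsPT4, a transporter with a known role in phosphate uptake and in the supply of the rice embryo, had 1909.95 and 1681 normalized counts in OE5-1 and OE5-2, against 1876 and 2241 in GL-1 and GL-2. The libraries of the genotypes overlapped. The log2 fold change was -0.20 (SE 0.13, 95% interval -0.48 to 0.09, edgeR adjusted p = 0.545), so a fall of up to 0.48 or a rise of up to 0.09 on the log2 scale remained possible.

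OsPT2, a low-affinity transporter known for phosphate movement within starved rice plants, did not pass the filter. It had raw counts of 24 and 18 in OE5-1 and OE5-2, against 6 and 14 in GL-1 and GL-2. After scaling, 22.3 and 16.2 normalized counts in OE5 stood against 6.45 and 15.5 in GL, so OE5-2 and GL-2 were nearly equal. Without a filter, its log2 fold change was 0.73 with a standard error of 0.53 and an adjusted p of 0.771 from edgeR. A difference in OsPT2 was not detectable at this depth. OsPT1 and OsPT2, with close locus numbers on chromosome 3, are paralogs of 1 family, and the handling of reads that map to more than 1 place was not given in the sources used here.

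The summed TPM of the 5 PHT1 members overlapped between the genotypes. It was 80.0 and 85.3 in OE5-1 and OE5-2, and 79.7 and 89.6 in GL-1 and GL-2. TPM carries a shift toward OE5, with a median log2 fold change over all tested genes of 0.14 on log2(TPM + 1) and -0.01 with TMM. The overlap therefore cannot be carried over to normalized counts, on which the sum was not compared. The make-up of the summed TPM differed. OsPT1 took 27.1% and 29.3% of it in OE5, against 41.6% and 43.6% in GL. OsPT8 took 17.6% and 23.6% in OE5, against 11.5% and 10.5% in GL, and OsPT11 took 6.99% and 6.95% in OE5, against 3.46% and 2.05% in GL. OsPT4 held the largest or next-to-largest share in every library, with 47.4% and 39.6% in OE5 and 43.2% and 43.4% in GL. A ratio of 2 genes within a library does not depend on how libraries are scaled. The TPM ratio of OsPT8 to OsPT1 was 0.651 and 0.807 in OE5 and 0.276 and 0.240 in GL.

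**Figure D2:**
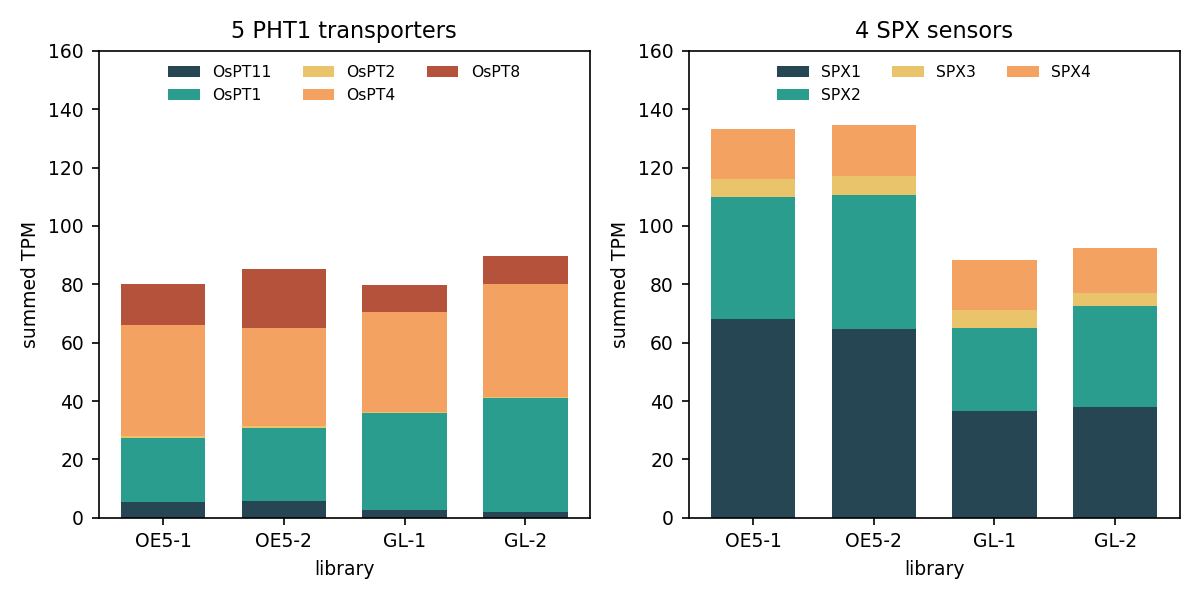
Summed TPM of the 5 PHT1 transporters (left panel) and of the 4 SPX sensors (right panel) in each library, stacked by gene from 0. The PHT1 sum lies between 79.7 and 89.6 TPM in all libraries with less OsPT1 and more OsPT8 and OsPT11 in OE5. The SPX sum is 133 and 135 TPM in OE5 and 88.3 and 92.5 TPM in GL. Both sums carry the shift of TPM toward OE5.

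Among the SPX sensors, SPX1 rose. It had 5022 and 4710.27 normalized counts in OE5-1 and OE5-2, against 2930.42 and 3211 in GL-1 and GL-2. The genotypes were well separated relative to the spread within each. The rise was 1.58-fold, with a log2 fold change of 0.66 (SE 0.11, 95% interval 0.41 to 0.92, edgeR adjusted p = 0.0135). Without OE5-1 or OE5-2 the log2 fold change was 0.62 and 0.71, so its size changed little. The call was lost in both fits, where the spread rests on the GL pair alone.

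SPX2, which acts with SPX1 as a nuclear brake on PHR2 in rice, had 1677 and 1837 normalized counts in OE5-1 and OE5-2, against 1229.61 and 1579.66 in GL-1 and GL-2. Both OE5 libraries were higher, but the GL libraries differed from each other by more than OE5-1 and GL-2 did. The log2 fold change was 0.32 (SE 0.14, 95% interval 0.02 to 0.63, edgeR adjusted p = 0.294). It was 0.16 without GL-1 and 0.52 without GL-2, so the GL libraries set its size.

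SPX3, a cytoplasmic and nuclear SPX protein known to respond to starvation in rice roots, had 276 and 276 normalized counts in OE5 and 296 and 232 in GL. The genotypes overlapped, and the log2 fold change of 0.06 (SE 0.18, 95% interval -0.34 to 0.47, edgeR adjusted p = 0.925) turned to -0.09 without GL-2. SPX4, which retains PHR2 in the cytoplasm, had 833 and 844 normalized counts in OE5 and 898 and 856 in GL, with both OE5 libraries slightly below GL. Its log2 fold change was -0.06 (SE 0.11, 95% interval -0.32 to 0.19, edgeR adjusted p = 0.872), and it was 0.09 with limma on log2(TPM + 1).

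PHR2 itself had 2888 and 2748 normalized counts in OE5-1 and OE5-2, against 2874 and 3044 in GL-1 and GL-2, and the genotypes overlapped. Its log2 fold change was -0.07 (SE 0.11, 95% interval -0.31 to 0.17, edgeR adjusted p = 0.848) and 0.09 with limma on log2(TPM + 1). Changes of more than 0.31 on the log2 scale in either direction lay outside this interval. The TPM ratio of SPX1 to PHR2 within a library was 2.15 and 2.11 in OE5 and 1.26 and 1.30 in GL. The ratio of SPX1 to SPX4 was 3.95 and 3.66 in OE5 and 2.14 and 2.46 in GL, whereas that of SPX3 to SPX4 was 0.360 and 0.355 in OE5 and 0.358 and 0.295 in GL.

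**Figure D3:**
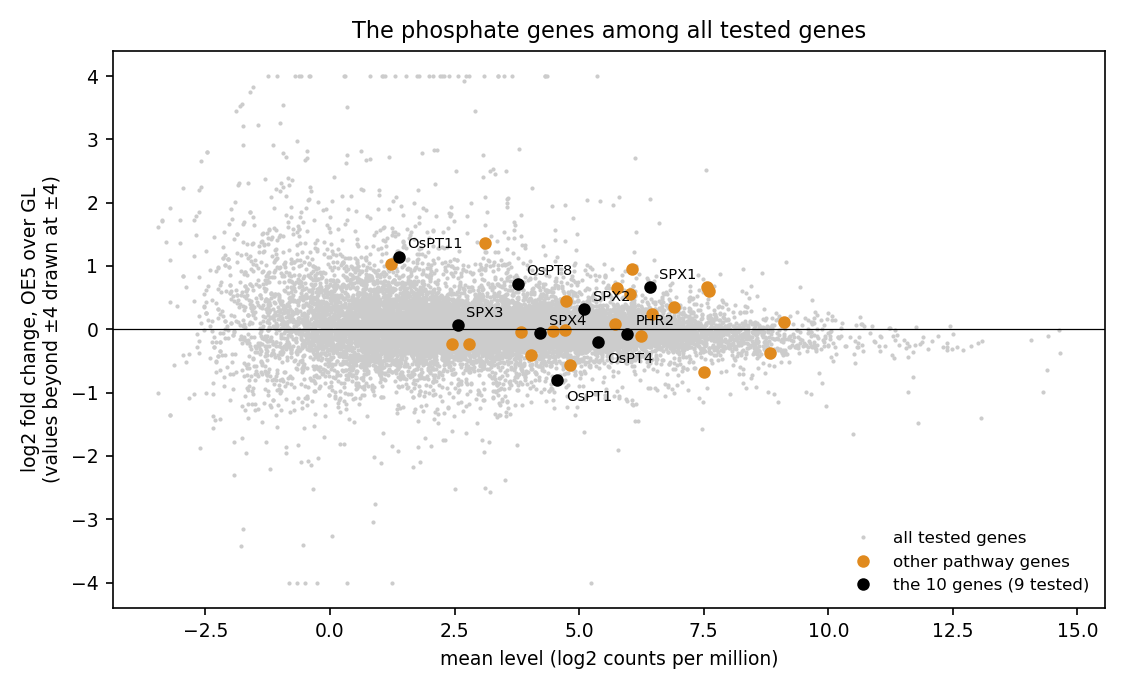
Log2 fold change of OE5 over GL (vertical axis) against mean level in log2 CPM (horizontal axis) for all 19280 tested genes in grey, with the 9 tested members in black and 22 other phosphate genes in orange. OsPT11 lies at the 98.1 percentile of log2 fold changes, OsPT8 at 95.5, SPX1 at 94.9 and OsPT1 at 2.24, while SPX3, SPX4 and PHR2 lie between 38.0 and 62.3.

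A list of 31 other phosphate genes was read from the same fit, with names given to MSU loci from rice nomenclature. Of these, 28 had values, 22 passed the filter, 4 rose and 1 fell. The remaining 3, OsPT6, OsPT9 and SPX6, were not analysed here. The shares of all tested genes given above, 2.11% higher and 1.28% lower, are the background for these counts. The median log2 fold change of the 22 was 0.11.

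All 4 of the genes that rose belong to a group of 6 genes listed here as induced by phosphate starvation in rice. The group was drawn up with earlier results of these data known. It leaves out SPX1, SPX2, SPX3 and SPX-MFS2, which are also known to rise under starvation. Other such genes may be missing from both. Of the 4 left out by name, only SPX1 was called by edgeR with TMM or by DESeq2. The locus LOC_Os03g05334 was taken for OsIPS1, a noncoding RNA that sequesters the starvation microRNA miR399, but this match rests on nomenclature alone and was not checked against an annotation. It had 687 and 447 normalized counts in OE5-1 and OE5-2, against 190 and 247 in GL-1 and GL-2. It was high in both OE5 libraries, and highest in OE5-1. The locus rose with a log2 fold change of 1.37 (SE 0.23, edgeR adjusted p = 0.0161), but without OE5-1 the value was 1.03 with an adjusted p of 0.098 from edgeR.

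OsSQD1 (LOC_Os05g32140) and OsSQD2.1 (LOC_Os01g04920) make sulfolipid, which stands in for phospholipid in chloroplast membranes. OsSQD1 had 11547 and 9988 normalized counts in OE5, against 6573 and 6927 in GL, and rose with a log2 fold change of 0.67 (SE 0.12, edgeR adjusted p = 0.0183). OsSQD2.1 had 11228 and 10573 normalized counts in OE5, against 6749 and 7596 in GL, and rose with a log2 fold change of 0.60 (SE 0.12, edgeR adjusted p = 0.0267), close to the fold limit. Neither gene had overlapping libraries. The isoform OsSQD2.2 (LOC_Os07g01030) overlapped between the genotypes, with a log2 fold change of 0.12 (SE 0.14, edgeR adjusted p = 0.781).

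OsPAP10a (LOC_Os01g56880), a purple acid phosphatase that releases phosphate from organic compounds, had 3210.24 and 2907 normalized counts in OE5, against 1774 and 2125 in GL. It rose with a log2 fold change of 0.65 (SE 0.12, edgeR adjusted p = 0.022). OsGDPD2 (LOC_Os02g31030), a glycerophosphodiester phosphodiesterase of phospholipid breakdown, had 4190.35 and 3854 normalized counts in OE5, against 1623 and 2552 in GL. All OE5 libraries were higher, yet the spread of GL was wide, and the log2 fold change of 0.95 (SE 0.21, edgeR adjusted p = 0.069) was not called. DESeq2 called it (adjusted p = 5.09e-05), so that DESeq2 called 5 of the 6, against 2.5% of all tested genes called higher. That group was drawn up with earlier results known, so its count is no independent support for a starvation response. It was also called with the replicate block (0.98, edgeR adjusted p = 0.0221), with limma on log2(TPM + 1) (1.12, adjusted p = 0.036), without GL-1 (log2 fold change 0.67) or without GL-2 (1.31). The calls of OsSQD2.1 and OsPAP10a were lost without GL-1, where the log2 fold changes of both were 0.53, under the fold limit. Those of OsSQD1, OsSQD2.1 and OsPAP10a were lost without either OE5 library, where they ranged from 0.56 to 0.77 and the adjusted p from 0.0875 to 0.302 from edgeR.

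The gene that fell was SPX-MFS1 (LOC_Os04g48390), which pairs an SPX domain with a transporter domain and belongs to the vacuolar phosphate transporters, and whose transcript is known to decline under phosphate starvation in rice. It had 7024 and 5894 normalized counts in OE5-1 and OE5-2, against 9813 and 10869 in GL-1 and GL-2. Its log2 fold change was -0.68 (SE 0.13, edgeR adjusted p = 0.0225). The call was lost without OE5-1 (-0.81, adjusted p = 0.0993), without OE5-2 (-0.56, adjusted p = 0.325) and with limma on log2(TPM + 1) (-0.51, adjusted p = 0.0941). SPX-MFS2 (LOC_Os02g45520), known to rise under starvation, had 6571 and 5849 normalized counts in OE5, against 3850.21 and 5921 in GL, and its log2 fold change of 0.35 (SE 0.20, edgeR adjusted p = 0.504) was not called. Without GL-2 it was 0.70 and called. SPX-MFS3 (LOC_Os06g03860) had a log2 fold change of -0.10 (SE 0.13, edgeR adjusted p = 0.813), and 0.06 with limma on log2(TPM + 1). The genotypes overlapped for SPX-MFS3, whose response to starvation was not weighed here. Of the SPX-MFS genes, only SPX-MFS1 was called by edgeR with TMM or by DESeq2.

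**Figure D4:**
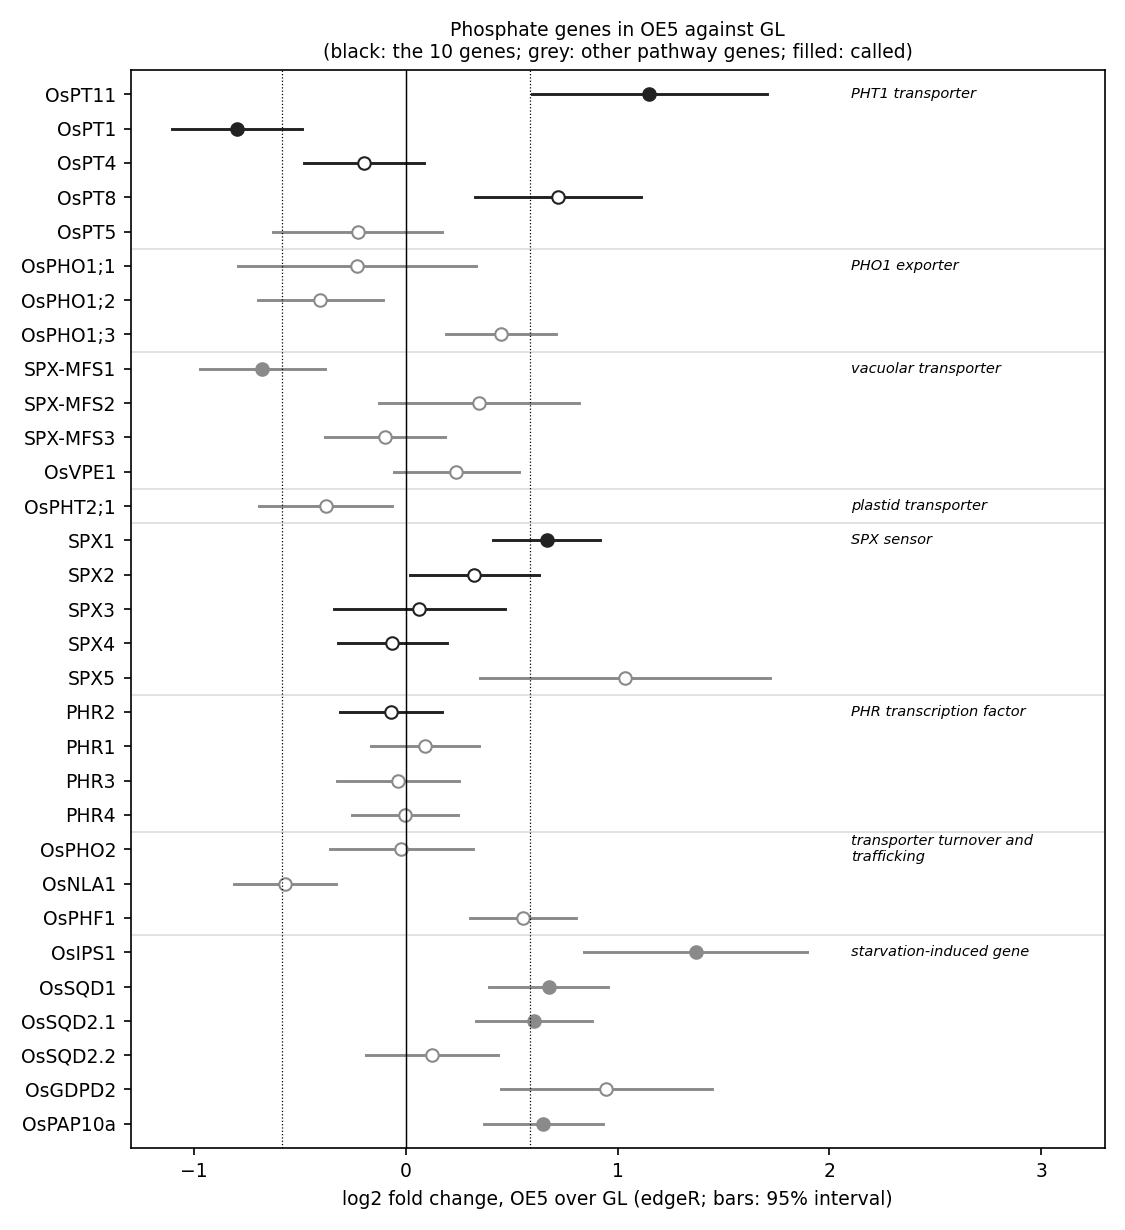
Log2 fold change of OE5 over GL (horizontal axis) with its 95% interval for the 9 tested members in black and the 22 other tested phosphate genes in grey, grouped by role. Filled points are called (adjusted p under 0.05 and fold change over 1.5), and dotted lines mark the fold limit. Of the 6 genes listed as starvation-induced at the bottom, 4 are filled, against 2.11% of all tested genes called higher. That group was drawn up with earlier results known. The PHR transcription factors lie close to 0.

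Apart from the starvation-induced genes and SPX-MFS1, no other gene of the list was called by edgeR with TMM or by DESeq2. Of the 8 other PHT1 loci, 6 had values, and 5 of them had at most 4 counts in any library. A count of 0, as for OsPT3 in both OE5 libraries, allows up to 3 counts, a limit that covers counting error only. OsPT5 (LOC_Os04g10690) was the exception with 10.3 ± 0.996 TPM in OE5 and 10.8 ± 1.39 TPM in GL (SD, n = 2), and its log2 fold change was -0.23 (edgeR adjusted p = 0.649). None of the 3 PHO1 exporters was called, although 2 had an unadjusted p under 0.05, as did 15.2% of all tested genes. Of the 2 exporters, OsPHO1;3 was higher and OsPHO1;2 lower. The plastid transporter OsPHT2;1 (LOC_Os02g38020), one of the most abundant transcripts of the list with 305 ± 41.5 TPM in OE5 and 355 ± 1.19 TPM in GL (SD, n = 2), had a log2 fold change of -0.38 (SE 0.14, edgeR adjusted p = 0.223). For the vacuolar phosphate exporter OsVPE1 (LOC_Os04g46880), the log2 fold change was 0.24 (SE 0.13, edgeR adjusted p = 0.455).

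Among the regulators, PHR1, PHR3 and PHR4 had no unadjusted p under 0.05, and PHR1, the most abundant of them, had a log2 fold change of 0.09 (SE 0.11, edgeR adjusted p = 0.813). SPX5 (LOC_Os03g29250) had 161 and 121 normalized counts in OE5, against 49.5 and 86.3 in GL, with a log2 fold change of 1.03 (SE 0.30, edgeR adjusted p = 0.117), and it was called without GL-2 and without a filter on low expression. Of 3 genes that control the amount of PHT1 protein, OsPHF1 (LOC_Os07g09000), which helps PHT1 proteins leave the endoplasmic reticulum, had a log2 fold change of 0.55 (edgeR adjusted p = 0.0267). OsNLA1 (LOC_Os07g47590), a ubiquitin ligase for PHT1 proteins, had -0.57 (edgeR adjusted p = 0.0192). Both passed the limit on p but not the one on fold change, so they were not called. OsPHF1 was called with limma on either TPM scale and without GL-1. The third, OsPHO2, had a log2 fold change of -0.02 (edgeR adjusted p = 0.97).

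OsPT11 is known for mycorrhizal roots, so 5 markers of that state were looked up. Only STR1, a transporter subunit of fungus-containing root cells, had values. It had 1.71 and 2.2 TPM in OE5 and 1.64 and 2.07 TPM in GL, and its log2 fold change was -0.09 (SE 0.25, edgeR adjusted p = 0.922). The other 4 markers were not analysed here. By the Euclidean distance of centred log2 CPM over the 4 libraries, the tested genes most like OsPT11 were LOC_Os10g33990 (distance 0.10) and LOC_Os02g58120 (distance 0.12). With 4 libraries, such a likeness describes little beyond the difference between the genotypes.

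**Figure D5:**
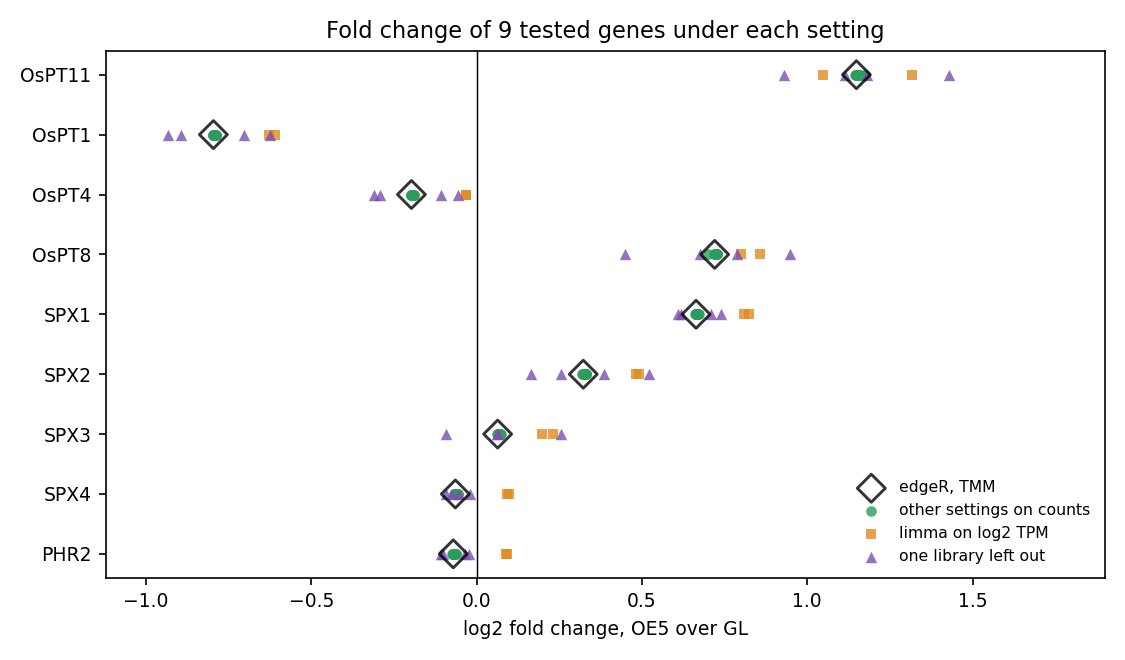
Log2 fold change of OE5 over GL (horizontal axis) for the 9 tested members under edgeR with TMM (diamonds), other settings on counts, limma on log2 TPM values, and with 1 library left out. OsPT11, OsPT8, SPX1 and SPX2 stay above 0 and OsPT1 and OsPT4 below 0 at every point, whereas SPX3, SPX4 and PHR2 lie on both sides.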

How the data were processed

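Reads were trimmed by the authors with fastp 0.20.1 and aligned with HISAT2 2.1.0 to Nipponbare, build MSU v7.0. TPMCalculator then gave the deposited counts, which are unnormalized reads per MSU locus. The deposited TPM values are scaled by gene length and by library. Strand, multi-mapped reads and overlapping genes are not described in the sources used here. Bisulfite samples (4 of 8) and the overexpressed gene are not reported here.

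Genes with a TPM sum of at least 2 over the replicates of OE5 or of GL were kept (19280). The test was the robust quasi-likelihood fit of edgeR 4.0.16 with TMM and a prior count of 2, run in R 4.3.3. It was tested on simulated data, where the share of false calls exceeded the nominal rate when the spread was made to differ by gene. Standard errors were obtained by dividing the size of the log2 fold change by the root of F. With 2 libraries per genotype they are imprecise. Alternatives were DESeq2 1.42.0, limma 3.58.1 on log2(TPM + 1) and log2(TPM + 0.1), other normalizations, filters and fold limits, leaving out each library, and a block for the replicate number.

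The members and lists were chosen with earlier results of these data known. Named from the other phosphate genes were those called and the 8 most abundant others, and OsPT3, OsPT5, OsPHO1;2, OsPHO1;3, SPX5, PHR3, PHR4, OsNLA1 and OsPHO2 were named after their values were seen. The RefSeq table (assembly ASM3414082v1) matched none of the locus identifiers. It lists the names of all 10 members and of 14 of the other 31. The remaining names rest on rice nomenclature. No sequence is shown, since no sequence of these genes was used here.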

Additional observations from a re-analysis of the deposited data

How the results depend on the processing

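Settings are given as members called, with those higher and lower in OE5 in turn (3, 2 and 1 with edgeR and TMM), and as all genes called (653, 407 and 246). With a fold limit of 2, 1 member, OsPT11, was called, 1 higher and 0 lower, along with 344 genes, 249 higher and 95 lower, and OsPT1 (-0.80) and SPX1 (0.66) were not. With limma on log2(TPM + 1) or log2(TPM + 0.1), 0 members and 98 or 93 genes were called lower, and OsPT1 had -0.61 or -0.63. On these scales SPX4 (0.092 and 0.097), PHR2 (0.088 and 0.091) and SPX-MFS3 (0.059 and 0.060) turned positive. Without a filter, 1207 genes were called, 776 higher and 431 lower. OsPT8 was called with DESeq2 (0.73), without a filter (0.73) and with the replicate block (0.70).

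With each library left out, from 194 to 1270 genes were called, 142 to 761 higher and 52 to 509 lower. A lone library is assumed to vary like the other genotype, so without OE5-1 or OE5-2 the spread rests on the GL pair. Members called ranged from 0 to 4, 0 to 3 higher and 0 to 1 lower, and other phosphate genes from 0 to 8, 0 to 7 higher and 0 to 1 lower. The log2 fold changes ranged from 0.93 to 1.43 for OsPT11, -0.93 to -0.62 for OsPT1, 0.45 to 0.95 for OsPT8, 0.61 to 0.74 for SPX1, -0.092 to 0.26 for SPX3 and -0.22 to 0.017 for SPX-MFS3. Of the other phosphate genes (5 called, 4 higher and 1 lower), 1 was called with a fold limit of 2, 1 higher and 0 lower. With limma, 0 were lower on both scales, and without a fold limit 2 were lower. The replicate numbers are not said to mark a shared batch, and across genes the deviations of OE5-1 and GL-1 correlated at 0.12 (Pearson's r) or -0.12 (Spearman's rho). With the replicate block, 708 genes and 4 members were called. The difference between the genotypes in the median of log2(TPM + 1) was 0.16, and 0.0499 as TMM-normalized CPM. The cause of these shifts was not tested.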
